A study of Homo sapiens with 6 samples.

Results

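The 10 genes ERG, FLI1, GATA2, TAL1, MYB, GFI1B, MEIS1, KLF1, GATA1 and TCF4 encode transcription factors of blood stem and progenitor cells. They were chosen by gene symbol and were all found, as 10 of the 62016 gene entries in each table. GATA1 had an additional entry on an alternate patch sequence, listed at 0, which was not used. RNA was sequenced from Kasumi-1, an established human acute myeloid leukemia line of myeloblasts with the AML1-ETO fusion protein, in which the blood factor RUNX1 is joined to RUNX1T1. The cells were infected for 4 days with pLKO viruses. They carried either a control shRNA or a hairpin against JMJD1C, shRNA63 or shRNA95, and each of these 3 groups has 2 libraries. JMJD1C is a relative of the KDM3 histone demethylases, and the study looked for RNA changes after its depletion. A further table compared Kasumi-1 cells with an AML1-ETO shRNA and cells with a control shRNA, with 1 library each from another published series.

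ERG and FLI1 are ETS-family factors, GATA2 and GATA1 are GATA zinc finger factors, and TAL1 is a basic helix-loop-helix factor that binds DNA with E proteins such as the product of TCF4. In blood stem and progenitor cells ERG, FLI1, GATA2 and TAL1 are known to occupy shared enhancers together with RUNX1, LYL1 and LMO2. MYB and MEIS1 are known for sustaining progenitor growth in leukemia, while GATA1, KLF1 and GFI1B act in red cell and platelet differentiation.

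FPKM, a fragment number scaled to transcript length and to sequencing depth, is given here as the authors' group value, 1 per group, scaled within a table. With shRNA63 JMJD1C itself fell to 13.7 from 30.4 FPKM, a log2 fold change of -1.15 in the authors' deposited table (error 0.30, q = 0.00214). The libraries labelled shRNA95 had 25.1 against 29.4 FPKM of it, a log2 fold change of -0.23 that was not called in the authors' deposited table (q = 0.938). The shRNA95 label is thus not checked by JMJD1C RNA, and directions for those libraries depend on it. Among the myeloblast markers AZU1 (azurocidin) stood at 1040 FPKM and PRTN3 (proteinase 3) at 3405 FPKM in the controls of the shRNA63 table. CEBPA and CD38 of the same list were under 1 FPKM there, at 0.458 and 0.406 FPKM. MPO was listed at 0 in every group with a status for loci of very high coverage, and TFRC at 0 with a status of failed estimation, so an exact 0 in these tables is not a measurement. The depth of the libraries is unknown. No label says whether both libraries of a group are separate cultures, and the p-values may then reflect technical spread alone.

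ERG was called lower with both hairpins, and GATA2 and KLF1 in the libraries labelled shRNA95. Promoters of these 3 genes are shown because they were called lower together there. RefSeq promoters of GRCh38.p14, from 250 bases before to 50 bases after a transcript start, were found for 9 of the 10 genes, with 24 starts in all. ERG has 4 listed starts, of which the most upstream (chr21:38660618-38660917, minus strand) and a downstream start (chr21:38498455-38498754, minus strand) are printed. GATA2 has 2 starts (chr3:128493152-128493451 and chr3:128488481-128488780, minus strand) and KLF1 has 1 (chr19:12887152-12887451, minus strand). Capitals mark, on either strand, the GATA motif GATAA, the RUNX motifs TGTGGT and TGCGGT, the E-box CAGCTG and the ETS motifs CCGGAA and AGGAAG.
ERG, upstream start: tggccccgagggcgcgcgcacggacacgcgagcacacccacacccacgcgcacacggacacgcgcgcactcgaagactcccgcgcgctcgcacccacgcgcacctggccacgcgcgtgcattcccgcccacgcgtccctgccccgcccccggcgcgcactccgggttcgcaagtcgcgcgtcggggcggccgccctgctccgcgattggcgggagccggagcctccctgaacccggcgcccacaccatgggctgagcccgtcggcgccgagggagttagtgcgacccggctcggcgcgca
ERG, downstream start: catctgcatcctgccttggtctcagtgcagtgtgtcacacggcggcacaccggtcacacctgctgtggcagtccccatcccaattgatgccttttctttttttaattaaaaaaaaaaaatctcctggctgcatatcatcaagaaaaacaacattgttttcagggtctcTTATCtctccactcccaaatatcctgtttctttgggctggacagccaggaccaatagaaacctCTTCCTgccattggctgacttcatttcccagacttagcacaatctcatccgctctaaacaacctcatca
GATA2, upstream start: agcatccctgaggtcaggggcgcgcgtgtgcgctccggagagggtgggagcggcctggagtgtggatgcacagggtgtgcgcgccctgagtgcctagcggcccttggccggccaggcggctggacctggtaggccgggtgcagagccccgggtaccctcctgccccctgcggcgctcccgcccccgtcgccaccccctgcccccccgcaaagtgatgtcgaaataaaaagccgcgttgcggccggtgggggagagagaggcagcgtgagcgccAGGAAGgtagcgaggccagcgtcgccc
GATA2, downstream start: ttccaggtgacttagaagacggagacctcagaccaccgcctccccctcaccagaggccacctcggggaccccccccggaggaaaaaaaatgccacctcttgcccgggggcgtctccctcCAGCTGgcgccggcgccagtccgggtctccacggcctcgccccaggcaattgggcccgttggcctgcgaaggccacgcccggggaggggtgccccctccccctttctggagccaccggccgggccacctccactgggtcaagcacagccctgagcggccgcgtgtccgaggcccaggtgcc
KLF1: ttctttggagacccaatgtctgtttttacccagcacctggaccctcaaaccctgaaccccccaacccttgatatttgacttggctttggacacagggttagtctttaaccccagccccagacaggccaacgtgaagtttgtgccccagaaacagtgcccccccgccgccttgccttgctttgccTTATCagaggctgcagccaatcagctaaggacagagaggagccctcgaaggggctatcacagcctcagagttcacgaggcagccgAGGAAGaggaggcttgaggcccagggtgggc
The downstream ERG promoter and the KLF1 promoter each held the GATA motif and the second ETS motif, while the upstream ERG promoter held none of the 6. Among all 35116 promoters of this length, the GATA motif was in 22.7%. It was in 6 of 23 windows of these genes, when the overlapping windows of a pair of ERG starts are counted once, and TCF4 supplies 10 of the 23. The second ETS motif was in 33.6% of all promoters and in 9 of the 23. The RUNX motif TGTGGT, found in 13.1% of all promoters, was in 2 of the 23, at TAL1 and MEIS1, and in none of those printed. A match describes the letters only, and the gene-level values do not show which start was in use.

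The 10 genes spanned more than 3 orders of magnitude in level, and 5 of them stood above 20 FPKM. In the controls of the shRNA63 table MYB, which encodes the c-Myb factor, was highest at 242 FPKM and ranked 562 among all genes. ERG followed at 74.0 FPKM, FLI1 at 57.6 FPKM, GATA2 at 31.3 FPKM and TAL1 at 26.9 FPKM. KLF1, the erythroid Kruppel-like factor, stood at 1.89 FPKM. TCF4 (0.593 FPKM), the HOX partner MEIS1 (0.147 FPKM), GFI1B (0.110 FPKM) and GATA1 (0.0845 FPKM) were under 1 FPKM, where the median of tested genes was 7.47 FPKM. Taking the control and shRNA groups to carry equal shares of the squared error of a log2 fold change, ERG and FLI1 did not differ in control level beyond their 95% interval (ratio 1.28). Nor did GATA2 and TAL1 (ratio 1.16), while MYB and ERG, FLI1 and GATA2, and TAL1 and KLF1 did. KLF1 and TCF4, and TCF4 and MEIS1, did not differ beyond theirs, and GFI1B and GATA1 had no error.

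**Figure D1:**
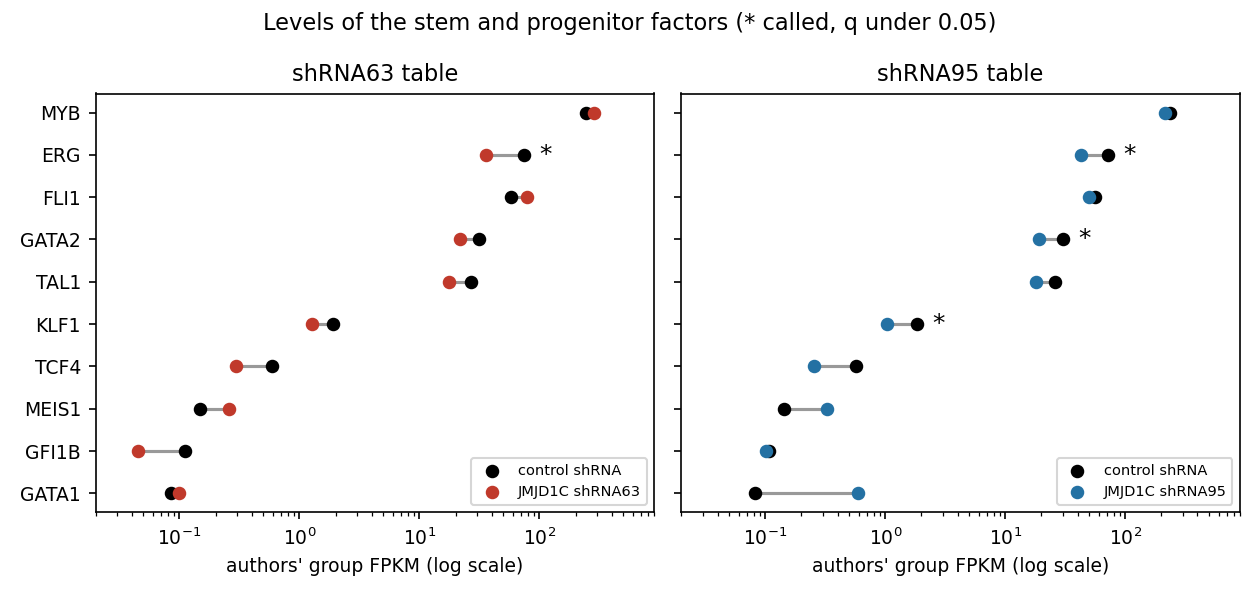
Authors' group FPKM on a log axis for the 10 factors in the shRNA63 table (left) and the shRNA95 table (right), black for control shRNA and coloured for JMJD1C shRNA, with 1 value per group and no error bar. Stars mark called genes: ERG with shRNA63, and ERG, GATA2 and KLF1 with shRNA95.

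With shRNA63 1 of 8 tested factors was called lower and 0 higher. A gene was called where the authors' q-value, which is adjusted over all tested genes, was under 0.05. Over all genes 5.12% of 18271 tested were called, 2.83% lower and 2.29% higher. With shRNA95 3 of 9 tested factors were called lower and 0 higher, where 4.40% of 18006 tested genes were called, 1.82% lower and 2.59% higher. At an unadjusted p under 0.05 the counts were 4 factors with shRNA63, where 13.4% of all tested genes passed, and 3 with shRNA95, where 12.3% passed. The 4 with shRNA63 were ERG, GATA2 and KLF1, which were lower, and FLI1, which was higher. The 3 with shRNA95 were ERG, GATA2 and KLF1, all lower. The median log2 fold change of the tested factors was -0.56 with shRNA63 and -0.55 with shRNA95, against 0.02 and 0.04 for all tested genes. GFI1B was tested in none of the tables, GATA1 was not tested with shRNA63, and MEIS1 was not tested in the AML1-ETO table.

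ERG was the factor called with both hairpins. It spans 39751949 to 40033704 of chromosome 21 in hg19. ERG was at 74.0 FPKM in the control and fell to 35.6 FPKM with shRNA63, which is 48.1% of control, and its rank among all genes went from 2063 to 3931. The log2 fold change was -1.06 (95% interval -1.62 to -0.49, error 0.29) with q = 0.00214 in the authors' deposited table. The shRNA95 table listed ERG at 71.7 FPKM in the control and 43.1 FPKM with the hairpin, 60.1% of control. That log2 fold change was -0.73 (95% interval -1.32 to -0.15, error 0.30) with q = 0.0378 in the authors' deposited table, and ERG was again called lower. The shRNA95 calls of ERG, GATA2 and KLF1 depended on the test: 0 of the 3 were made with p taken from the statistic that gives these intervals, and 0 at a q under 0.01. Both comparisons used the same control libraries. The difference between hairpins, shRNA63 minus shRNA95, was -0.32 for ERG (95% interval -1.13 to 0.49), with an unadjusted p of 0.439. Fewer cells that make a transcript and less RNA per cell cannot be told apart in bulk samples such as these. Lymphoid markers were measured in the same tables: the summed level of 6 T cell markers was 7.72 against 12.8 FPKM with shRNA63 and 6.14 against 12.4 FPKM with shRNA95. CD3D, which was not called, made up most of that sum in the controls (8.52 FPKM in the shRNA63 table, 8.26 FPKM in the shRNA95 table). It stood at 2.45 FPKM with shRNA63 and 1.59 FPKM with shRNA95, a larger drop than that of the whole sum with either hairpin. CD247, the next highest T cell marker, stood at 4.99 against 3.64 FPKM and at 4.10 against 3.52 FPKM, also without a call. The sum of 5 B cell markers was 2.18 against 4.31 FPKM with shRNA63 and 4.78 against 4.18 FPKM with shRNA95. The T cell marker CD3E and the B cell marker CD79A were called lower with shRNA63. Each was the 1 call of 3 tested, where 2.83% of all tested genes were called lower. With shRNA95 0 of 3 were called in either list. The B cell surface gene MS4A1 was listed at 0 in all groups. The part of such cells in the values of ERG was not tested.

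FLI1, the closest relative of ERG among the 10, was not called with either hairpin. It spans 128499548 to 128683161 of chromosome 11. FLI1 stood at 79.3 FPKM with shRNA63 against 57.6 FPKM in the control, and the log2 fold change was 0.46 in the authors' deposited table (95% interval -0.03 to 0.95, q = 0.124). With shRNA95 it stood at 49.8 against 55.9 FPKM, with a log2 fold change of -0.17 in the authors' deposited table (95% interval -0.66 to 0.33, q = 0.928). The ratio of ERG to FLI1 was 1.28 in the control and 0.449 with shRNA63, a log2 change of -1.52 (95% interval -2.26 to -0.77). With shRNA95 the ratio was 0.866, and the interval of its change, -1.33 to 0.20, included 0. FLI1 had the smallest unadjusted p for a difference between hairpins, 0.0793, with a difference of 0.63 (95% interval -0.07 to 1.33). The locus of FLI1 also holds FLI1-AS1, at 4.90 FPKM in the control, 3.14 FPKM with shRNA63 and 3.77 FPKM with shRNA95. Strand use in the counting is not stated in the labels or headers, so how far reads of FLI1 and its antisense gene were told apart is unknown.

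GATA2, which is needed for the maintenance of blood stem cells and for mast cells, had similar values with both hairpins but passed the threshold with shRNA95 alone. It spans 128198270 to 128221191 of chromosome 3. GATA2 fell with shRNA95 to 19.3 FPKM, 63.6% of its control value of 30.3 FPKM. Its log2 fold change there was -0.65 (95% interval -1.19 to -0.12, error 0.27) with q = 0.0211 in the authors' deposited table. With shRNA63 it stood at 21.6 against 31.3 FPKM, or 69.0% of control, and the log2 fold change was -0.54 (95% interval -1.06 to -0.01, error 0.27) with q = 0.0841 in the authors' deposited table. The difference between hairpins was 0.12 for GATA2 (95% interval -0.63 to 0.87). Its locus also holds RP11-475N22.4, at 2.37 FPKM in the control, 1.58 FPKM with shRNA63 and 1.62 FPKM with shRNA95.

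TAL1 had group values below its controls with both hairpins and a wider error than GATA2. It spans 47681963 to 47697892 of chromosome 1. TAL1 stood at 17.5 against 26.9 FPKM with shRNA63, or 65.1% of control, and at 17.9 against 26.1 FPKM with shRNA95, or 68.4% of control. The log2 fold changes were -0.62 (95% interval -2.11 to 0.88, q = 0.609) and -0.55 (95% interval -1.87 to 0.77, q = 0.652) in the authors' deposited tables. Neither value was called. The errors of 0.76 and 0.67 were more than those of any other factor above 20 FPKM, which lay between 0.25 and 0.31.

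MYB, at 135502453 to 135540311 of chromosome 6, was not called in any table. It stood at 288 against 242 FPKM with shRNA63 and at 213 against 235 FPKM with shRNA95. The log2 fold changes were 0.25 (95% interval -0.31 to 0.81) and -0.14 (95% interval -0.75 to 0.47) in the authors' deposited tables. Its locus also holds MYB-AS1, at 5.23 FPKM in the control and 5.71 FPKM with shRNA63.

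Of the red cell and platelet factors, KLF1 was called lower with shRNA95. KLF1, which activates beta-globin and other red cell genes, spans 12995237 to 12997995 of chromosome 19 and shares its locus with no other gene of the table. It fell with shRNA95 to 1.03 FPKM from a control value of 1.84 FPKM. The log2 fold change was -0.84 (95% interval -1.46 to -0.21, error 0.32) with q = 0.0186 in the authors' deposited table. With shRNA63 KLF1 stood at 1.27 against 1.89 FPKM, with a log2 fold change of -0.58 in the authors' deposited table (95% interval -1.18 to 0.02, q = 0.166). These are low levels, and with 1 FPKM added to both groups the shRNA95 value of KLF1 became -0.48. The call of KLF1, like that of ERG with this hairpin, was lost at a q under 0.01 and with p taken from the statistic. GATA1, the master regulator of red cell and megakaryocyte development on chromosome X, was listed at 0.588 FPKM with shRNA95 against 0.0820 FPKM. The log2 fold change of GATA1 was 2.84 in the authors' deposited table (95% interval -0.54 to 6.22, q = 0.528), and with shRNA63 it stood at 0.0992 against 0.0845 FPKM without a test. GFI1B, a repressor of the GFI1 family on chromosome 9, was listed at 0.0449 against 0.110 FPKM with shRNA63 and at 0.102 against 0.107 FPKM with shRNA95.

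MEIS1 and TCF4 were low and were not called with either hairpin. MEIS1, on chromosome 2, stood at 0.261 against 0.147 FPKM with shRNA63 and at 0.324 against 0.143 FPKM with shRNA95. The 95% interval of its log2 fold change reached from -2.84 to 4.48 and from -2.81 to 5.17. TCF4, which encodes the E protein E2-2 that specifies plasmacytoid dendritic cells, lies on chromosome 18 and stood at 0.295 against 0.593 FPKM with shRNA63 and at 0.256 against 0.574 FPKM with shRNA95. Its q-values were 0.410 and 0.476 in the authors' deposited tables.

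**Figure D2:**
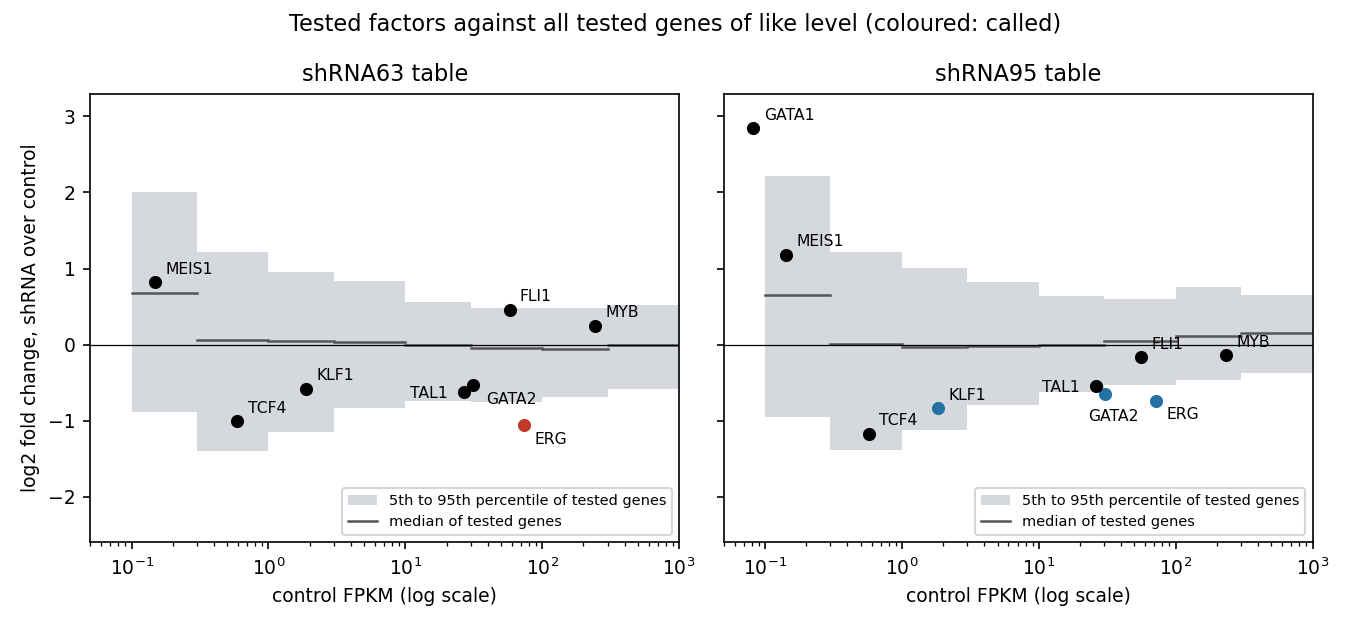
Log2 fold change of the tested factors against control FPKM (log axis) in both JMJD1C tables, with the grey band from the 5th to the 95th percentile of all tested genes of like level and the line at their median. ERG lies below the band in both tables, GATA2 below it with shRNA95, and KLF1 inside it although it was called.

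Among genes with a control level of 30 to 100 FPKM the 5th percentile of the log2 fold change was -0.75 with shRNA63 and -0.54 with shRNA95. ERG lay below it in both tables, at -1.06 and -0.73 in the authors' deposited tables. GATA2 lay below it with shRNA95 only, at -0.65 against -0.54 with shRNA63 in the authors' deposited tables. FLI1, at 0.46 with shRNA63 in the authors' deposited table, was inside the 95th percentile of 0.48. Between 1 and 3 FPKM the 5th percentile was -1.15 and -1.13, so KLF1 at -0.58 and -0.84 in the authors' deposited tables was inside the band.

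Of the 6 factors that entered the test between hairpins, 0 passed it, 0 had an unadjusted p under 0.05, and the smallest unadjusted p was the 0.0793 of FLI1. The test took the difference of the log2 fold changes over their joint error and adjusted p by Benjamini-Hochberg over 13870 genes, of which 1.08%, or 150, passed. That error treats the fold changes as independent although they share the control libraries. With the control part of the errors removed 587 genes and again 0 of the 6 factors passed, with the smallest adjusted p 0.187 for FLI1. The intervals of KLF1 (-0.61 to 1.12), MYB (-0.44 to 1.22) and TAL1 (-2.07 to 1.92) leave room for differences in either direction, so the test does not show that the hairpins act alike.

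In the AML1-ETO comparison 0 of 8 tested factors were called, and over all genes the share called was 0.411% of 22406 in the authors' deposited table. With 1 library a group this test compares those libraries, not the conditions. GATA2 had the lowest value, with a log2 fold change of -1.55 in the authors' deposited table (error 0.62, unadjusted p = 0.0131, q = 0.468). TAL1 was next at -1.51 in the authors' deposited table (error 0.86, unadjusted p = 0.0265, q = 0.604). These were the 2 factors at an unadjusted p under 0.05, a level that 6.67% of all tested genes passed in the authors' deposited table. In the authors' deposited table the values were -0.71 for ERG (error 0.59), -0.54 for KLF1 (error 0.74) and -0.21 for FLI1 (error 0.51). They were 0.53 for MYB (error 0.52), 0.53 for GATA1 (error 0.87) and 1.17 for TCF4 (error 3.31) in the authors' deposited table. The fusion partner RUNX1T1 had -1.04 (error 0.87) and no call in the authors' deposited table.

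**Figure D3:**
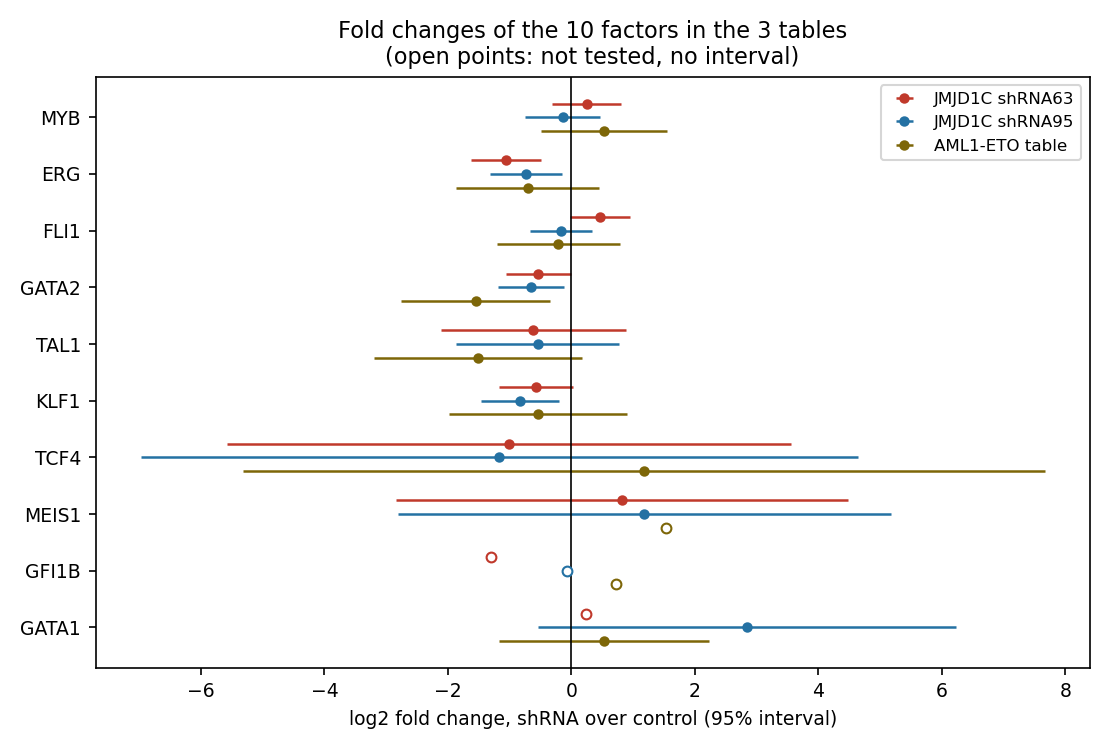
Authors' log2 fold changes of the 10 factors, shRNA over control, with 95% intervals from the authors' test statistic, in red for shRNA63, blue for shRNA95 and brown for the AML1-ETO table. Open points were not tested and have no interval. The intervals of ERG and of GATA2 exclude 0 in both JMJD1C tables, and those of TCF4 and MEIS1 span several log2 units.

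The partners and relatives of the factors were read against the share called over all genes, 5.12% with shRNA63 and 4.40% with shRNA95. Of 51 such genes in 6 lists, 0 of 48 tested were called with shRNA63, 1 of 47 with shRNA95 and 0 of 49 in the AML1-ETO table, and these counts are not read as a difference from those shares. The call was SSBP3, which encodes a single-stranded DNA-binding protein that stabilises the LDB1 complexes of TAL1. SSBP3 fell from 110 to 64.5 FPKM with shRNA95, a log2 fold change of -0.77 in the authors' deposited table (error 0.22, q = 0.00401). With shRNA63 it stood at 84.7 against 113 FPKM without a call (q = 0.266 in the authors' deposited table). The remaining TAL1 partners among 10, of which TCF3 was highest at 223 FPKM, were not called, and the list median was -0.08 with shRNA63 and -0.19 with shRNA95. LMO2, the bridging protein of that complex, stood at 80.7 against 59.8 FPKM with shRNA63 (q = 0.192 in the authors' deposited table).

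Of 12 ETS relatives of ERG and FLI1 0 were called in each of the 3 tables, and the medians were 0.05 with shRNA63 and -0.25 with shRNA95. ETV6, a repressor of the family, was the highest of them at 121 FPKM in the control and 94.0 FPKM with shRNA63. Of the MEIS1 partners and relatives 0 of 8 tested were called with shRNA63 and 0 of 7 with shRNA95, with PBX2, a DNA-binding partner, highest at 40.5 FPKM. HOXA9, the HOX gene best known as a partner of MEIS1 in leukemia, stood at 0.284 FPKM in the control and 0.409 FPKM with shRNA63. Of 7 MYB relatives and coactivators 0 were called in each table, with MYBL2, a cell cycle relative of MYB, highest at 85.0 FPKM. Of 10 genes listed for GFI1B, its corepressors and its paralog GFI1, 0 were called in each table, with the histone deacetylase gene HDAC2 highest at 231 FPKM. GFI1, the paralog of GFI1B, stood at 180 FPKM in the control and 195 FPKM with shRNA63, where GFI1B was at 0.110 and 0.0449 FPKM. ZFPM1, which encodes the GATA cofactor FOG1, stood at 1.58 against 3.32 FPKM with shRNA63 and at 1.32 against 3.22 FPKM with shRNA95. Its log2 fold changes were -1.07 (error 0.52, q = 0.121) and -1.28 (error 0.67, q = 0.0650) in the authors' deposited tables, neither of them called.

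**Figure D4:**
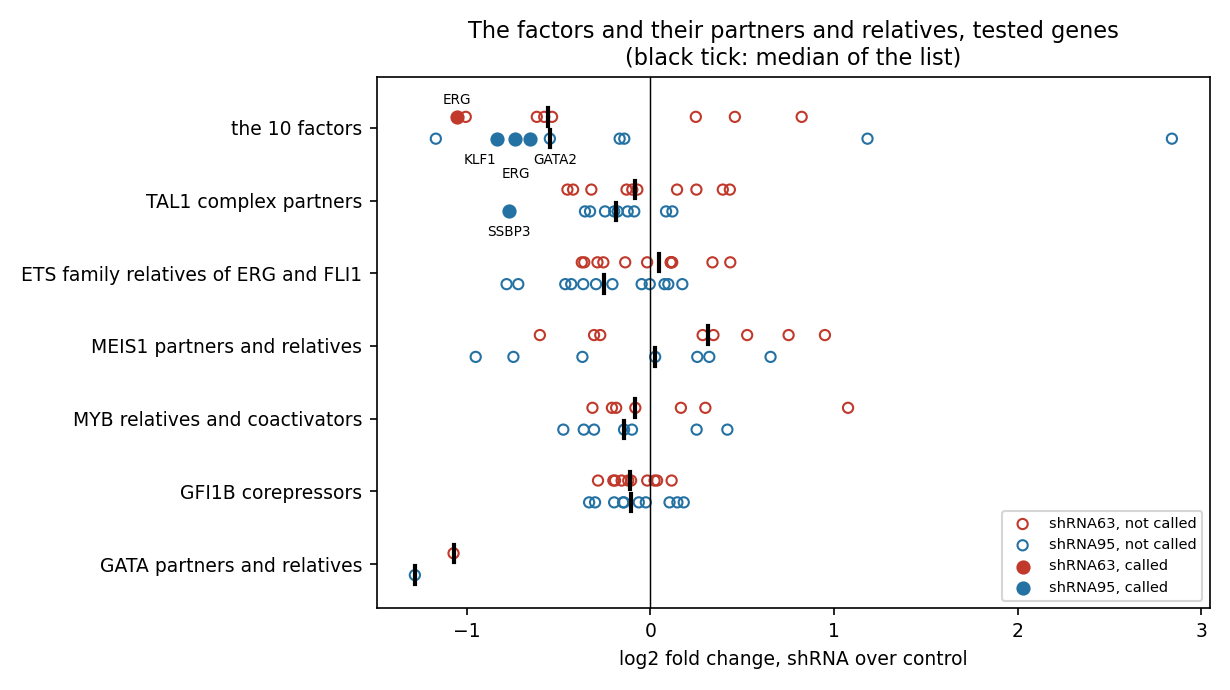
Authors' log2 fold changes of the tested factors and of the tested genes of 6 lists of partners and relatives, red for shRNA63 and blue for shRNA95, filled where called, with black ticks at the list medians. SSBP3 with shRNA95 is the filled point outside the 10 factors.

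Genes known to depend on these factors in differentiated cells were mostly near 0. Leaving out TFRC, whose estimate failed, 19 of 21 red cell genes were under 1 FPKM in the control, and 10 were listed at 0 in both groups of the shRNA63 table. ERMAP, a red cell membrane gene, was called higher with shRNA63, from 4.74 to 8.39 FPKM (q = 0.0274 in the authors' deposited table). It was the 1 call of 3 tested, where 2.29% of all tested genes were called higher. With shRNA95 0 of 2 were called, and EPOR, the erythropoietin receptor gene, was the highest of the list at 5.78 FPKM in the control of the shRNA63 table. Of the 14 megakaryocyte genes reported here 10 were under 1 FPKM in the control, and PLEK (pleckstrin) was the highest at 89.8 FPKM in the control of the shRNA63 table. ITGA2B, the platelet integrin gene, fell from 2.29 to 0.914 FPKM with shRNA63 and stood at 2.68 against 2.22 FPKM with shRNA95.

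Of 3 tested mast cell and basophil genes 2 were called lower with either hairpin, where 2.83% of all tested genes were called lower with shRNA63 and 1.82% with shRNA95. SLC18A2, a vesicle transporter of histamine and other amines, fell to 48.3 FPKM with shRNA63 (control 98.2 FPKM) and to 60.7 FPKM with shRNA95 (control 95.2 FPKM). SLC45A3 was called lower with both hairpins, which share their controls, with log2 fold changes of -0.58 and -0.65 in the authors' deposited tables. In the AML1-ETO comparison, with 1 library a group, SLC45A3 had a log2 fold change of -2.51 in the authors' deposited table (error 0.64). The defining mast cell genes HDC, CPA3 and MS4A2 were under 1 FPKM in every group. Of 12 entries for plasmacytoid dendritic cell genes, the cell type that TCF4 specifies, 9 were under 1 FPKM in the control. NRP1 was called higher with shRNA63, from 0.146 to 0.784 FPKM. It was the 1 call of 5 tested, where 2.29% of all tested genes were called higher. With shRNA95 0 of 5 were called.

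Other progenitor genes gave 3 lower calls of 10 tested with shRNA63, where 2.83% of all tested genes were called lower. They were KIT, the stem cell factor receptor gene, which fell from 245 to 134 FPKM, NPR3, from 27.3 to 4.23 FPKM, and TIE1, an endothelial and stem cell receptor gene, from 4.12 to 0.549 FPKM. With shRNA95 NPR3, MSI2 and CD200 were called lower and CD34 higher, of 10 tested, where 1.82% of all tested genes were called lower and 2.59% higher. In the AML1-ETO comparison, with 1 library a group, CD34 had a log2 fold change of -2.15 in the authors' deposited table (error 0.53). These lists were drawn up with earlier results of these data known, so their directions are not independent evidence.

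By distance over the 3 log2 fold changes, the genes nearest to ERG were OTUD6B, SNORA5A, DISC1, SH3PXD2B and AC004812.1, among 9801 genes with at least 5 FPKM in the controls and a test in all 3 tables. OTUD6B, a deubiquitinase-family gene, stood at 5.87 FPKM with shRNA63 (control 13.1 FPKM) and at 7.64 FPKM with shRNA95 (control 12.7 FPKM). DISC1 went from 11.6 to 6.11 FPKM and from 11.2 to 6.45 FPKM. OTUD6B and DISC1 were called lower with both hairpins, while SNORA5A, SH3PXD2B and AC004812.1 were called with neither. These genes were chosen for fold changes near those of ERG, so their direction was set by the choice and their calls are not separate evidence. Of the other factors TAL1 ranked 753 and GATA2 ranked 1004 in this order, while FLI1 ranked 6640 and MYB ranked 7873. The 2 hairpin comparisons share their controls, so likeness over 3 values describes these tables only.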

How the data were processed

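The 6 libraries were grouped by their titles, 2 per group. TopHat2 2.0.8b, Cuffdiff 2.1.1 and hg19 are named in the submitters' processing notes without role or order. Each JMJD1C table holds 1 FPKM per group, combined from the libraries and scaled within the table by the authors. The authors' log2 fold change, test statistic (a score per gene), p-value and q-value were used as deposited, per the file headers. The 2 FPKM columns of the AML1-ETO table belong to another series and were not used.

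A gene was called where the deposited q-value was under 0.05 and the authors had tested it. The error is the size of the log2 fold change divided by the statistic and 95% intervals take it as normal. Errors taken from the deposited p-value would be narrower: its normal deviate had a median of 1.42 times the statistic with either hairpin. The hairpin test used a normal approximation, with errors below the 10th percentile raised to it, over genes with at least 1 FPKM in the higher group of both tables. No test over libraries could be made from group values, and depth is unknown.

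The members, gene lists and tests were chosen with earlier results of these data known. The text names all 10 factors, from each list the called genes or else the one with the highest FPKM, the targeted genes and the 5 genes nearest to ERG; other genes were named after their values were seen. 1 gene of the megakaryocyte list is not reported here, so no count of calls is given for that list. Coordinates are hg19 except for RefSeq promoters (GRCh38.p14). Python 3.11.15, pandas 2.3.3 and scipy 1.17.1 were used.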

Additional observations from a re-analysis of the deposited data

How the results depend on the processing

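The count of called factors with shRNA63 was 1 (ERG) with q under 0.01, with p taken from the statistic, and with adjustment over genes of at least 1 FPKM. It was 2 (ERG and GATA2) with q under 0.1, and 4 at an unadjusted p under 0.05 (ERG, GATA2 and KLF1 lower, FLI1 higher). With shRNA95 the 3 calls became 0 with q under 0.01 and 0 with p taken from the statistic under a normal distribution with Benjamini-Hochberg adjustment. The AML1-ETO table gave 2 factors at an unadjusted p under 0.05 and 0 under its other alternatives. The difference between hairpins passed for 0 factors under all 5 alternatives. Among partners and relatives with shRNA95, q under 0.1, chosen after seeing the data, gave 2 genes (SSBP3 and ZFPM1). Centring on the median changed no direction of a called factor. No paired analysis was possible because the tables hold 1 value per group, and leaving out a replicate could not be run for the same reason. Depth is unknown, and for genes under 1 FPKM the errors limit what can be seen.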

Other observations

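Markers of lymphoid cells were measured in the same tables. CD3D, a T cell receptor gene, stood at 2.45 against 8.52 FPKM with shRNA63 and at 1.59 against 8.26 FPKM with shRNA95, with log2 fold changes of -1.80 (error 1.10) and -2.37 (error 1.10) in the authors' deposited tables, neither of them called. In the AML1-ETO comparison it stood at -3.19 (error 1.02, q = 0.168) in the authors' deposited table. CD3E was called lower with shRNA63, from 0.470 to 0.122 FPKM, as 1 of 3 tested T cell markers. Over all tested genes 2.83% were called lower with shRNA63. With shRNA95 0 of 3 T cell markers were called. CD79A, a B cell receptor gene, was called lower with shRNA63, from 2.33 to 0.948 FPKM, as 1 of 3 tested B cell markers, and stood at 2.11 against 2.26 FPKM with shRNA95, where 0 of 3 were called. Of the 5 fibroblast markers, all under 1 FPKM in the control, 0 were called with either hairpin, and COL1A1 was the highest at 0.403 FPKM. Of 8 tested myeloblast markers 4 were called higher (CD33, AZU1, PRTN3 and ELANE) and 1 lower (KIT) with shRNA63, where 2.29% of all tested genes were called higher and 2.83% lower. With shRNA95 AZU1 and CD34 were called higher, 2 of 8, where 2.59% of all tested genes were. CD34 lay on the other side of its control with shRNA63, at 103 against 151 FPKM, without a call. In the AML1-ETO comparison, with 1 library a group, CD34 had a log2 fold change of -2.15 in the authors' deposited table (error 0.53).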
